A study of Mus musculus with 6 samples.

Results

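The T cell receptor complex and NFAT genes comprised 9 genes of the 770 on the panel, taken by name: the CD3 chain genes Cd3d, Cd3e and Cd3g, the co-receptor genes Cd4 and Cd8a, the surface modulator Cd5, the kinase gene Zap70, and the transcription factor genes Nfatc1 and Nfatc2. They were measured in 6 tumour RNA samples of BrafV600E/PtenNULL melanoma mice, in which 4-hydroxy-tamoxifen on shaved skin started the tumours when the mice were 10 weeks old. Of these, 3 samples came from mice given 4'-BR (4′-bromo-resveratrol, a bromine-bearing analogue of resveratrol) by intraperitoneal injection of 30 mg/kg on 3 days a week for 5 weeks, and 3 were Control samples from mice of the same genotype and tumour induction. What the Control mice received, and the promoter that drives the tamoxifen-activated recombinase, are stated nowhere in the sources used here. The labels do not say that each sample came from a separate mouse, so a p-value covers only the spread among the samples, which may be technical. Counts were read on the nCounter platform, which counts barcoded probe pairs bound to single RNA molecules without amplification.

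A T cell recognises antigen through its receptor, whose antigen-binding chains carry the signal into the cell by way of the CD3 chains. Phosphorylated CD3 tails recruit the kinase ZAP-70, CD4 or CD8 bind the presenting MHC molecule and bring the kinase LCK, and CD5 dampens the signal. The calcium rise that follows activates calcineurin, which lets NFAT proteins enter the nucleus and switch on cytokine genes. CD3 and ZAP-70 are largely confined to T cells and, for ZAP-70, natural killer cells, whereas the NFAT factors are also made by many cells outside the immune system, among them cells of the skin.

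The sequences of the 250 bases upstream of the transcription start are shown for the CD3 genes, which stand next to each other in the order Cd3g, Cd3d, Cd3e, and for 3 members with some of the higher fold changes below, Cd5, Zap70 and Nfatc2. They are RefSeq sequences of the mouse build GRCm38.p6, written 5′ to 3′ along the gene's strand. Capitals mark the core GGAAA that NFAT proteins bind, on either strand (TTTCC when read on the other). It contains GGAA, the core of ETS factor sites, so a match can belong to either family.
Cd3g chr9:44980432-44980681 - strand: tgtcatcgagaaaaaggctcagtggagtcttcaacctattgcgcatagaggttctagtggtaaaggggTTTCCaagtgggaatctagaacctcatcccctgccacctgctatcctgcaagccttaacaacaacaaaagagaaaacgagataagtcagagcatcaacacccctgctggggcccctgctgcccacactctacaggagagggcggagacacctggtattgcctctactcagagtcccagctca
Cd3d chr9:44981536-44981785 + strand: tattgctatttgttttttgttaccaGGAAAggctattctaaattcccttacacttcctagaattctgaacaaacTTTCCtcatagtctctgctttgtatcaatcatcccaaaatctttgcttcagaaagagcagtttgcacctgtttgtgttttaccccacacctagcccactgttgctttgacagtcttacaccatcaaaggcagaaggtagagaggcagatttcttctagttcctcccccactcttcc
Cd3e chr9:45009612-45009861 - strand: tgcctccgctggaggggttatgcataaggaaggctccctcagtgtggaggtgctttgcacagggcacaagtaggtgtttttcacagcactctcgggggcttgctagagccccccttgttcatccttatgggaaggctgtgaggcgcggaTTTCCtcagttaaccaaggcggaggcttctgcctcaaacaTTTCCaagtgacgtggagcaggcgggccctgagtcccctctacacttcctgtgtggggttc
Cd5 chr19:10738975-10739224 - strand: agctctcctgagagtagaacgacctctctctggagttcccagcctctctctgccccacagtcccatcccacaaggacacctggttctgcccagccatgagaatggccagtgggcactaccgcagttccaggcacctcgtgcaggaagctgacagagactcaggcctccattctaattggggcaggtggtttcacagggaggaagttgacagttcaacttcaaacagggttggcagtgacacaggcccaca
Zap70 chr1:36761548-36761797 + strand: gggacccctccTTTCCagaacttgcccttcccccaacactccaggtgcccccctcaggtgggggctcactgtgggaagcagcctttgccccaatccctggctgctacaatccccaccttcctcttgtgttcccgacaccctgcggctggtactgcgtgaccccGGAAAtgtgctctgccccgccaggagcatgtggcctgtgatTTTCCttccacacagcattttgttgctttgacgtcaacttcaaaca
Nfatc2 chr2:168601658-168601907 - strand: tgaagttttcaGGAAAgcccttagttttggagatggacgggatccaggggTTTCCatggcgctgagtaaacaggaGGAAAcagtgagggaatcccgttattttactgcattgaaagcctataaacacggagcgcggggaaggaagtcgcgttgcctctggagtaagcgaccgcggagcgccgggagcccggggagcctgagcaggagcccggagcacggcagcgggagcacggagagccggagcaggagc
Cd3g and Cd3d are read on opposite strands, away from each other. Zap70 had 3 annotated starts and Nfatc2 had 2, and the one shown is the most upstream. GGAAA was present in 7 of the 10 upstream windows found for 7 of the 9 members, with 3 matches each in the Zap70 and Nfatc2 windows shown and none in that of Cd5. Of 32851 windows of the same length across the genome, 55.6% held it. The E-box CANNTG was found in 9 of the 10 windows, against 66.2% of those 32851, and TGTGGT, a core of Runx sites, in 1, against 14.0%.

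Depth differed between the groups. Total counts over the 770 genes lay between 118221 and 254862 in 4'-BR samples and between 322485 and 472402 in Control samples, and the geometric mean of the 20 housekeeping probes between 221 and 435 in 4'-BR samples and between 504 and 698 in Control samples. Levels below are therefore counts divided by a sample factor from the housekeeping probes (scaled counts), and 4'-BR samples were multiplied up more than Control samples. After this scaling the 8 negative control probes, which match no mouse RNA, averaged 5.6 ± 2.03 in 4'-BR samples and 4.63 ± 0.45 in Control samples (SD, n = 3 each). The unscaled counts of the members show what the scaling did. The 3 samples of a group summed to 88 Zap70 counts in 4'-BR and 88 in Control, and to 764 and 838 Nfatc2 counts. Of the 9 members, Cd5 was the one with the higher unscaled sum in 4'-BR samples, 40 against 35.

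After scaling, 8 of the 9 members had a higher fitted level in 4'-BR tumours. The 8 include Cd8a, whose counts exceeded the mean plus 2 SD of the negative probes in 0 of 6 samples. Its fitted rise cannot be told from background. In 5 of the 8, Cd3d, Cd5, Zap70, Nfatc1 and Nfatc2, every 4'-BR sample lay above every Control sample. Across all 770 genes fitted without a count minimum, 52.1% had a positive fold change and 12.2% had 4'-BR samples all above Control samples. The median log2 fold change was 0.68 over the 9 members, Cd8a included, and 0.02 over all 770 genes. None of the members passed the test. The edgeR fit to genes whose raw count averaged 20 or more tested 7 members, and 0 had an adjusted p under 0.05, against 6.93% of 548 genes (1.28% higher). At an unadjusted p under 0.05, 3 of the 7 were higher, against 7.66% of the 548 (23.4% in either direction). In the edgeR fit without a minimum 0 of the 9 passed, against 5.58% of 770 genes (1.17% higher), and 4 of the 9 were higher at an unadjusted p under 0.05, against 7.4% (19.9% in either direction). limma on log2 values also gave 0, where it called 7.3% of the 548 genes. DESeq2 with the same housekeeping scaling gave 2, Nfatc1 and Nfatc2, where it called 12.6% of the 548 genes (3.83% higher). The samples were bulk tumour RNA, so fewer or more T cells, less or more RNA per T cell, and RNA from other cells cannot be told apart.

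**Figure D1:**
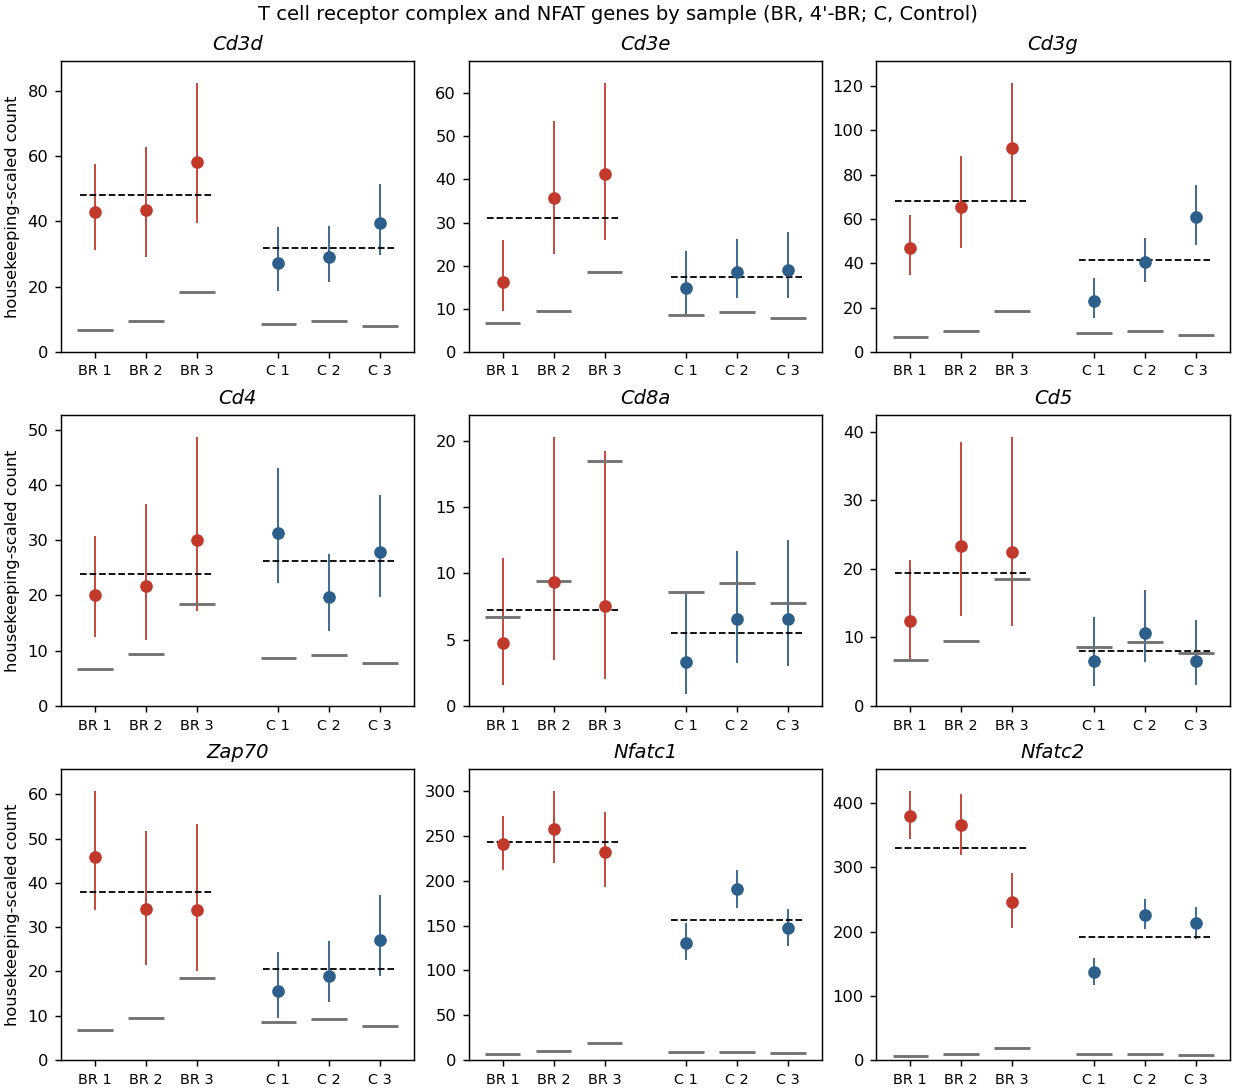
Housekeeping-scaled counts of the 9 genes in each sample (points; BR, 4'-BR; C, Control), with the exact 95% Poisson interval of the count (vertical lines, counting error only), the group mean (dashed) and the mean plus 2 SD of that sample's negative probes (grey bars). Cd8a stays at or under the grey bar in all 6 samples, and for Cd5, Zap70, Cd3d, Nfatc1 and Nfatc2 the 4'-BR points lie above all Control points.

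The 3 CD3 genes were each about 1.5- to 1.7-fold higher by the fit. Cd3d, which encodes the delta chain, had 43.0, 43.5 and 58.1 scaled counts in 4'-BR samples, against 27.2, 29.1 and 39.5 in Control samples. The groups did not overlap, though the lowest 4'-BR sample stood only slightly above the highest Control sample. The means were 48.2 ± 8.59 in 4'-BR and 32.0 ± 6.61 in Control (SD, n = 3 each), with a log2 fold change of 0.58 (SE 0.28, edgeR adjusted p = 0.245).

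Cd3e, the epsilon chain gene, had 16.2, 35.8 and 41.3 scaled counts in 4'-BR samples, against 14.8, 18.4 and 19.0 in Control samples. 4'-BR 1 lay inside the Control range and the other 4'-BR samples above it. Its log2 fold change was 0.77 (SE 0.37, edgeR adjusted p = 0.251), with a 95% interval from −0.07 to 1.61. Cd3g, the gamma chain gene, had 46.8, 65.3 and 91.9 scaled counts in 4'-BR samples, against 23.1, 40.4 and 60.7 in Control samples. Here 4'-BR 1 lay below Control 3, and each group spanned a wide range. The log2 fold change was 0.69 (SE 0.38, edgeR adjusted p = 0.31), and it was 0.40 without Control 1, 0.42 without 4'-BR 3 and 1.06 without Control 3. In scaled counts the 3 chain genes put the samples of each group in the same order. For each of them 4'-BR 3 was the highest and 4'-BR 1 the lowest 4'-BR sample. Control 3 was the highest and Control 1 the lowest Control sample. Scaling divides all 3 genes by the same sample factor, and the raw counts of the 4'-BR samples did not share this order. In 4'-BR 1, 2 and 3 they were 45, 28 and 31 for Cd3d, 17, 23 and 22 for Cd3e, and 49, 42 and 49 for Cd3g.

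Cd4 and Cd8a are the co-receptor genes of helper and cytotoxic T cells, and neither passed the test. Cd4 had 20.1, 21.8 and 30.0 scaled counts in 4'-BR samples, against 31.3, 19.6 and 27.8 in Control samples. The groups overlapped throughout. The means were 24.0 ± 5.32 in 4'-BR and 26.3 ± 6.00 in Control (SD, n = 3 each), with a log2 fold change of −0.15 (SE 0.31, edgeR adjusted p = 0.773; 0.01 under total-count scaling) and an interval from −0.85 to 0.55. Some mouse dendritic cells carry CD4 as well, so its level is not that of helper T cells alone.

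Cd8a lay near the negative probes. Its raw counts were 5, 6 and 4 in 4'-BR samples and 4, 11 and 9 in Control samples, and none of the 6 exceeded the mean plus 2 SD of the negative probes in its sample. With the highest of the 8 negative probes as the mark, 1 of 6 samples exceeded it. A count of 4 has an exact 95% Poisson interval of 1.09 to 10.2, which reaches the background limit of 9.86 counts in 4'-BR 3. The scaled means of 7.20 ± 2.29 in 4'-BR and 5.47 ± 1.88 in Control samples (SD, n = 3 each) are thus close to those of the negative probes, and a change of Cd8a was not detectable at this depth (log2 fold change 0.30, interval −0.72 to 1.31, fit without a minimum).

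Cd5, the inhibitory surface receptor, had 12.4, 23.3 and 22.5 scaled counts in 4'-BR samples, against 6.60, 10.7 and 6.58 in Control samples. All 4'-BR samples lay above the Control samples, 4'-BR 1 by the least. The raw counts were 13, 15 and 12 in 4'-BR samples and 8, 18 and 9 in Control samples, and they exceeded the background limit in 3 of 3 4'-BR samples and in 1 of 3 Control samples. Cd5 was under the count minimum, and in the fit of all 770 genes its log2 fold change was 1.2 (SE 0.40, edgeR adjusted p = 0.104). With the negative probes subtracted the log2 fold change was 1.95 (edgeR adjusted p = 0.164).

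Zap70, the kinase that docks on phosphorylated CD3 chains, had 45.9, 34.2 and 33.8 scaled counts in 4'-BR samples, against 15.7, 19.0 and 27.1 in Control samples. The groups did not overlap. The means were 37.9 ± 6.86 in 4'-BR and 20.6 ± 5.86 in Control (SD, n = 3 each), a log2 fold change of 0.89 (SE 0.31, edgeR adjusted p = 0.111). In scaled counts its highest 4'-BR sample was 4'-BR 1, unlike the CD3 genes. In raw counts 4'-BR 1 was highest for Zap70 (48, 22 and 18 in 4'-BR 1, 2 and 3) and also for Cd3d. It was level with 4'-BR 3 for Cd3g and lowest for Cd3e. All raw counts of Zap70, Cd4 and the CD3 genes exceeded the background limit in 6 of 6 samples. Relative to the limit the closest was Cd4 in 4'-BR 3, with 16 counts against a limit of 9.86.

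The NFAT genes were the best counted of the 9, with raw counts from 124 to 398 and at least 26.5 times the mean negative probe in every sample. Nfatc1 had 241, 258 and 233 scaled counts in 4'-BR samples, against 131, 190.3 and 147 in Control samples. The 4'-BR samples were close together and all above the Control samples. The means were 244 ± 13 in 4'-BR and 156 ± 30.6 in Control (SD, n = 3 each), a log2 fold change of 0.64 (SE 0.18, edgeR adjusted p = 0.0681, interval 0.23 to 1.05).

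Nfatc2, the factor already present in resting T cells, had 380.4, 365 and 246 scaled counts in 4'-BR samples, against 137, 227 and 213 in Control samples. The groups were apart, with 4'-BR 3 just above Control 2. The means were 330.5 ± 73.8 in 4'-BR and 192 ± 48.3 in Control (SD, n = 3 each), a log2 fold change of 0.79 (SE 0.24, edgeR adjusted p = 0.072, interval 0.25 to 1.32). Both NFAT genes fell on the other side of the threshold under other choices. With TMM, median-of-ratios or total-count scaling in edgeR, and with DESeq2, the adjusted p was 0.0325 to 0.0411 for Nfatc1 and 0.0319 to 0.0452 for Nfatc2.

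**Figure D2:**
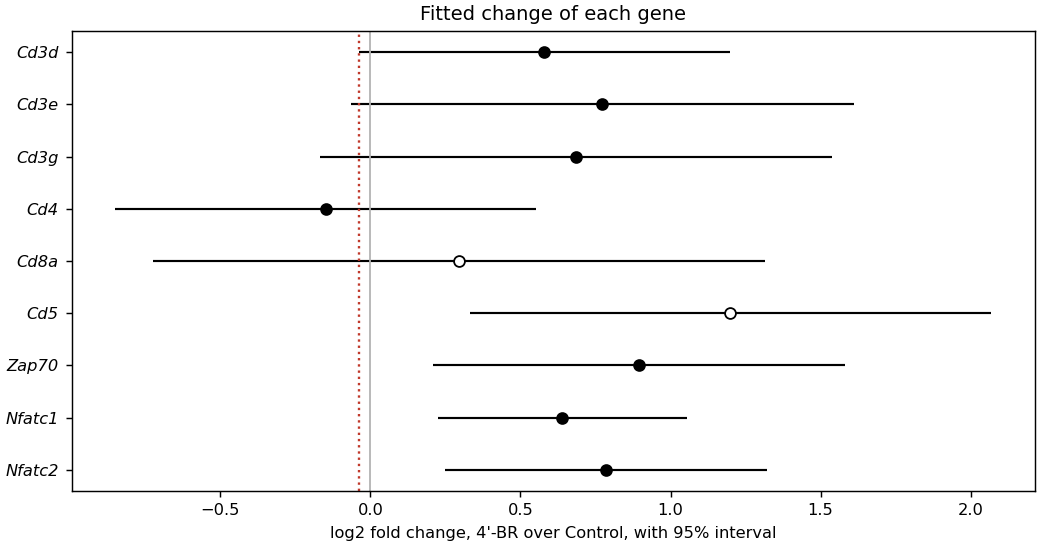
Fitted log2 fold change of each gene, 4'-BR over Control (points), with its 95% interval (lines); filled points come from the fit with the minimum of 20 counts and open points (Cd8a, Cd5) from the fit without a minimum. The dotted line is the median of the 548 tested genes, −0.04; the intervals of Cd5, Zap70, Nfatc1 and Nfatc2 lie above 0 before adjustment, and those of the other 5 genes hold 0.

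The direction of 4 members depended on the scaling. Under housekeeping, TMM, median-of-ratios and total-count scaling the 8 members other than Cd4 were positive, and Cd4 was at −0.15, −0.17, −0.14 and 0.01. With the positive control probes, which detect spiked-in synthetic targets and so follow the assay and not the amount of tumour RNA, the median of all tested genes moved to −0.67. Under that scaling Cd3d was at −0.04, Nfatc1 at −0.01, Cd8a at −0.35 and Cd4 at −0.76, while Cd3e stood at 0.11, Cd3g at 0.03, Nfatc2 at 0.14, Zap70 at 0.28 and Cd5 at 0.54. Every member except Cd4 stayed above the median of all tested genes under each of the 5 scalings. For Cd8a, which lay near the negative probes and under the count minimum of those genes, this comparison says little.

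**Figure D3:**
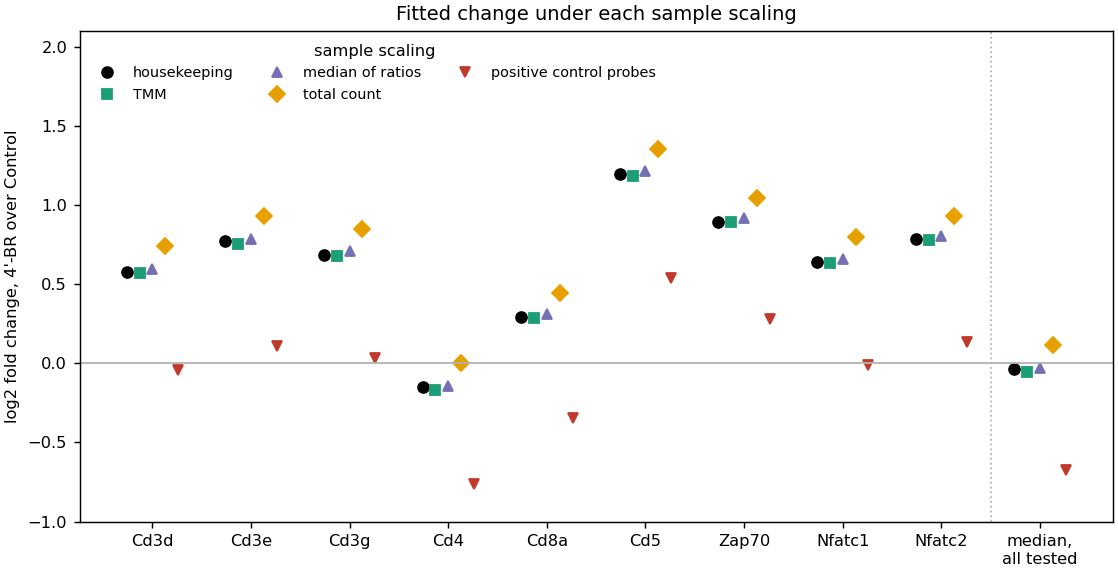
Fitted log2 fold change of each gene, 4'-BR over Control (vertical axis), under 5 sample scalings (symbols), with the median of the 548 tested genes at the right. Positive control scaling lowers all genes together, to −0.04 for Cd3d and −0.01 for Nfatc1, against −0.67 for the median gene.

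A ratio of counts within a sample does not depend on the scaling, so 6 members were also set against the geometric mean of the 3 CD3 genes in the same sample. The log2 ratio of Cd4 to CD3 was −0.67, −1.10 and −1.01 in 4'-BR samples, against 0.57, −0.51 and −0.36 in Control samples. It was lower in all 4'-BR samples, by 0.83 on average. But of the 545 tested genes besides the 3 CD3 genes, Cd4 among them, 36.9% were lower without overlap (0.183% were higher). The median difference over those 545 genes was −0.75. Cd4 thus moved against CD3 about as the middle gene of the panel did.

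The log2 ratio of Zap70 to CD3 averaged −0.26 ± 0.70 in 4'-BR and −0.46 ± 0.08 in Control samples (SD, n = 3 each). The 3 Control samples were close together, whereas 4'-BR 1 was at 0.52 and 4'-BR 3 at −0.84. The ratio averaged 2.44 ± 0.48 in 4'-BR and 2.48 ± 0.39 in Control samples for Nfatc1, and 2.85 ± 0.78 and 2.77 ± 0.23 for Nfatc2. These differences were within the spread between samples. Cd5 averaged −1.26 ± 0.23 in 4'-BR and −1.83 ± 0.55 in Control samples, with overlap, and Cd8a −2.69 ± 0.35 and −2.40 ± 0.29. Each probe binds with its own efficiency, so a ratio compares samples and not the abundance of 2 transcripts.

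**Figure D4:**
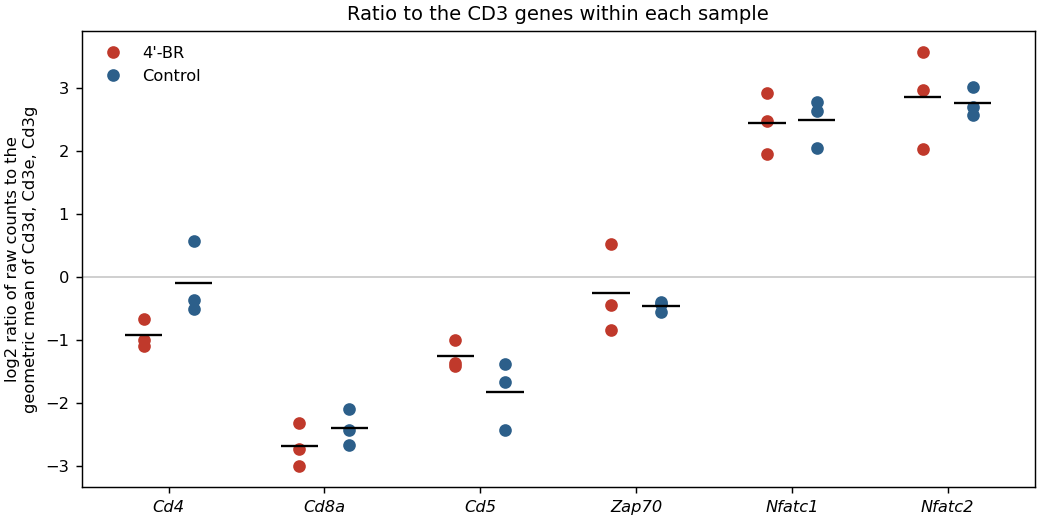
Log2 ratio of the raw count of each gene to the geometric mean of Cd3d, Cd3e and Cd3g in the same sample (points), with the group mean (bars), 4'-BR left and Control right of each pair. Only the Cd4 pair has no overlap, at −1.10 to −0.67 in 4'-BR and −0.51 to 0.57 in Control samples, among the 6 ratios drawn.

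The genes around the members in the pathway were taken from 4 lists. Of 11 measured genes of receptor-proximal signalling, 9 were tested, 1 fell and 0 rose, where 5.66% of the 548 genes fell, with a median log2 fold change of −0.17 over the tested genes against −0.04 over all 548. The one that fell was Fyn, a Src-family kinase of T cells and of many other cells, with 407, 432 and 317 scaled counts in 4'-BR samples against 661, 650.1 and 601 in Control samples (log2 fold change −0.72, edgeR adjusted p = 0.0387). Fyn kept its sign but not its call when any 1 of the 6 samples was left out, at −0.60 to −0.81 with an adjusted p of 0.0507 to 0.146. Lck, the kinase that phosphorylates CD3, and Cd247, the zeta chain of the receptor complex, were singled out after their values were seen. Lck had 18.2, 21.8 and 20.6 scaled counts in 4'-BR samples and 19.8, 20.8 and 19.7 in Control samples. Its log2 fold change was −0.01 (edgeR adjusted p = 0.985), and that of Cd247 was 0.41 (edgeR adjusted p = 0.423). 

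Of 14 measured genes of the T cell surface and co-stimulation, 4 were tested and 0 passed in edgeR, with 1 at an unadjusted p under 0.05, where 6.93% and 23.4% of the 548 genes did. DESeq2 called Thy1. Thy1, a glycoprotein of T cells and fibroblasts, had 929, 732 and 690.3 scaled counts in 4'-BR samples against 1229, 1170 and 1086 in Control samples (log2 fold change −0.57, edgeR adjusted p = 0.0692). The groups did not overlap, opposite in direction to Cd3d, where 98 of the 548 genes were lower without overlap. Icos, a co-stimulatory receptor of activated T cells, was at 0.49 (edgeR adjusted p = 0.383), with 56.4, 48.2 and 60.02 scaled counts in 4'-BR samples and 28.0, 32.1 and 57.1 in Control samples. Of the 14, 8 lay near the negative probes by the same mark as Cd8a.

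Of 2 further NFAT family genes 0 passed in edgeR, with 1 at an unadjusted p under 0.05 (6.93% and 23.4% of the 548 genes), and 0 in DESeq2 or limma. Nfatc3 had 95.6, 126 and 95.7 scaled counts in 4'-BR samples against 80.8, 70.2 and 62.9 in Control samples, without overlap (log2 fold change 0.57, edgeR adjusted p = 0.15). Of the 548 genes, 69 were higher without overlap. Nfatc4 was at 0.15 (edgeR adjusted p = 0.654), with overlap, and at −0.04 without 4'-BR 2. All 4 NFAT genes on the panel thus had positive fold changes under housekeeping scaling, none past the threshold in edgeR or limma and Nfatc1 and Nfatc2 past it in DESeq2, and 3 of the 4, Nfatc1, Nfatc3 and Nfatc4, turned negative under positive control scaling.

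Of 13 measured genes known to be induced through NFAT in activated T cells, 3 were tested and 0 passed in edgeR, with 1 at an unadjusted p under 0.05, again against 6.93% and 23.4% of the 548 genes. The early response factors of the list went opposite ways. Egr3 had 239, 233 and 287 scaled counts in 4'-BR samples against 166, 165 and 165 in Control samples (log2 fold change 0.61, edgeR adjusted p = 0.0511), and Egr2 had 86.0, 57.5 and 99.4 against 107, 109 and 113 (−0.44, edgeR adjusted p = 0.288). Neither pair of groups overlapped, where 69 of the 548 genes were higher and 98 lower without overlap. Both genes also respond to growth factors in cells other than T cells. Egr3 passed with DESeq2 (adjusted p = 0.0271) and with median-of-ratios and total-count scaling. The T cell cytokine genes of the list gave little to measure: 8 of the 13 genes lay near the negative probes, among them Il2, with 5.73, 6.22 and 5.63 scaled counts in 4'-BR samples and 0.82, 1.78 and 5.12 in Control samples.

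**Figure D5:**
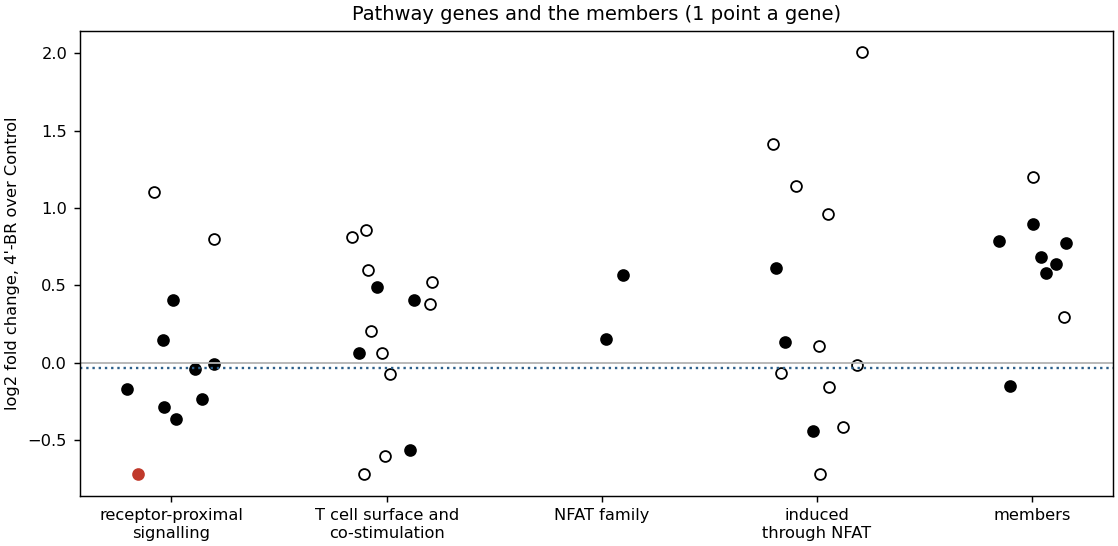
Log2 fold change, 4'-BR over Control, of each gene of the 4 pathway lists and of the 9 receptor complex and NFAT genes (labelled members; 1 point a gene, sideways position without meaning); open points were under the count minimum and come from the fit without it. Fyn is the one gene past the threshold (red, −0.72), and the dotted line is the median of the 548 tested genes, −0.04.

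The genes whose sample pattern was nearest to that of CD3 were found by the root-mean-square difference between centred log2 scaled counts over the 6 samples, among the 545 other tested genes. The nearest was Il1a, an alarm cytokine of epithelium and myeloid cells, at 0.12 log2 units. It was followed by Itgae, the CD103 integrin chain of lymphocytes that lodge in epithelium, at 0.21, and Ctsw, a protease of cytotoxic lymphocytes, at 0.21. Itgae had 60.2, 68.4 and 69.4 scaled counts in 4'-BR samples against 31.3, 45.2 and 58.5 in Control samples (log2 fold change 0.54, edgeR adjusted p = 0.281). Il1a was at 0.48 (edgeR adjusted p = 0.383) and Ctsw at 0.65 (edgeR adjusted p = 0.191). Among the members Nfatc1 came 48th, Zap70 96th, Nfatc2 164th and Cd4 254th of 545.

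Some markers of other cell types also differed between the groups, and their part in the values above was not tested. The summed scaled counts of 7 T cell markers were 189 to 285 in 4'-BR samples and 122 to 187 in Control samples. All 7 are members, so these sums restate the values above, and 1 of them, Cd8a, lay near the negative probes. Those of 7 natural killer cell markers were 82.5 to 135 in 4'-BR and 62.7 to 76.7 in Control samples, with 6 of the 7, Ncr1 and Klrb1c among them, near the negative probes. Against 5.66% of the 548 genes that fell and 1.28% that rose in edgeR, of 5 fibroblast markers 4 fell (sums 9641 to 14613 in 4'-BR, 22148 to 30704 in Control samples), of 6 macrophage markers 2 fell (818 to 1115 in 4'-BR, 1304 to 1531 in Control samples), and of 4 keratinocyte and epithelial markers 2 rose (4432 to 5124 in 4'-BR, 3124 to 3653 in Control samples). Of 5 melanocyte markers listed, 0 were measured on the panel, so melanocyte markers were not analysed here.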

How the data were processed

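The deposited raw table gives each probe's count in each sample, per the file headers, for 750 endogenous, 20 housekeeping, 6 positive and 8 negative probes. The labels instead speak of 730 immune and 40 housekeeping genes, and scaling used the 20 that the table marks. The series table holds the authors' normalized score per gene; 99.87% to 100% of its values in each sample lay within 1 of the raw count times a factor that levels the housekeeping geometric mean. No source used here names the software behind either table.

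Raw counts were fitted with the two-sided quasi-likelihood test of edgeR 4.0.16, under R 4.3.3 (Benjamini-Hochberg over all genes tested, threshold 0.05), with library sizes from the housekeeping geometric mean and no block. Genes needed a mean raw count of 20, which kept 548 of 770 and 7 of the 9 members; Cd5 and Cd8a come from the fit without a minimum. Of the 7, Cd4 passed the minimum through the deeper Control samples (mean raw counts 17 in 4'-BR and 36.3 in Control). Fold changes are 4'-BR over Control, with SE from the F statistic and 95% intervals not adjusted for the number of genes. Alternatives used limma 3.58.1 (pseudocount 1) and DESeq2 1.42.0, other scalings, filters and left-out samples. A gene was near the negative probes when 3 or more of 6 samples did not exceed the mean plus 2 SD of that sample's 8 negative probes. Poisson intervals (scipy 1.17.1) cover counting error only.

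Replicates of a group differed by more than counting noise (chi-square per degree of freedom 7.30 to 26.2), and no 2 of them were merged. Before use, the edgeR script was checked on simulated counts.

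All 9 probe accessions matched the mouse RefSeq table, used for names; upstream sequences are from RefSeq on GRCm38.p6. The members, lists, tests and alternatives were chosen with earlier results of these data known. The genes named besides the members are, from each of the 4 pathway lists, those past the threshold or else the 2 of lowest p, and the 3 genes nearest to the CD3 pattern; Lck, Cd247 and Il2, and the markers named as near the negative probes, were chosen after their values were seen.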

Additional observations from a re-analysis of the deposited data

How the results depend on the processing

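Of 155 recomputed fold changes of the 9 members, 142 kept their sign and their side of the threshold, 8 came to pass it (Nfatc1 and Nfatc2) and 5 changed sign. For Nfatc1 they were 0.63 (TMM), 0.66 (median of ratios), 0.80 (total count) and 0.64 (DESeq2), and for Nfatc2 0.78, 0.80, 0.93 and 0.79 in that order, so that 2 members were called under each, against 0 in edgeR with housekeeping scaling. DESeq2 used that same scaling, so there the test differed and the scaling did not. The sign changes were Cd3d (−0.045), Cd8a (−0.35) and Nfatc1 (−0.0076) with positive control probes, Cd8a (−0.0087) with the negative probes subtracted and Cd4 (0.0052) with total count. Of the other named genes, positive control probes turned Icos (−0.13), Nfatc3 (−0.079), Nfatc4 (−0.51), Egr3 (−0.0090), Il1a (−0.16), Itgae (−0.10) and Ctsw (−0.0083), and Nfatc4 was at −0.044 without 4'-BR 2, in a range up to 0.26 without 4'-BR 3; the cause was not tested. Over all genes edgeR called 38 (7 higher, 31 lower), with 16 higher under TMM, 17 under median of ratios, 60 (30 higher) under total count and 244 (1 higher, 243 lower) under positive control probes, and DESeq2 called 69 (21 higher, 48 lower). No member passed with any sample left out, when 0 to 35 genes were called (0 to 4 higher, 0 to 31 lower): 1 without Control 1, 7 without Control 2, 35 without Control 3, 0 without 4'-BR 1 (107 at an unadjusted p under 0.05), 0 without 4'-BR 2 (116) and 1 without 4'-BR 3. Fits that leave out a sample have fewer samples. With a minimum of 50, 3 members were tested and none passed.

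The same replicate numbers in both groups showed no clear pairing of the samples (correlations of their deviations −0.08, 0.08 and 0.21, where other pairs reached 0.22). With 3 samples a group, these correlations cannot decide whether the samples were paired. With the replicate block 30 genes were called, 3 of them higher, and 0 members, and no fold change of a member changed its sign or side of the threshold. Only 1 of the 3 numbers, the third, had both its samples correlate best with each other.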
